A study of Saccharomyces cerevisiae with 32 samples.

Results

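The sequences described here are variants of the PDZ ligand of CRIPT in which an acidic residue, aspartate (D) or glutamate (E), replaced the lysine at position 4, whatever stood at positions 1 to 3. They were chosen by sequence alone, as every sequence of the N-terminal CRIPT library that carried D or E at position 4 and no stop codon. The set held 5589 sequences, 1666 with D and 3923 with E, out of 76895 sequences of that library without a stop codon and 470640 in the 4 tables of the series. Of the 8000 combinations of residues possible before each acid, 20.8% were listed with D and 49.0% with E.

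The study measured how variants of the third PDZ domain of PSD95 (PDZ3), a scaffold protein of synapses, and of the 8-residue ligand from CRIPT affected binding of the pair in living yeast. Libraries of variants were introduced into Saccharomyces cerevisiae strain BY4741, a haploid laboratory strain, and assayed by protein complementation, in which binding brings together the fragments of a methotrexate-resistant enzyme so that the cells can grow in the drug. For the N-terminal library, in which positions 1 to 4 were varied and positions 5 to 8 kept, there were 3 input and 3 output samples, labelled as biological replicates. Input cells had grown at 30 °C without the drug over 5 generations, output cells over a further 5 or so in medium containing methotrexate at 200 µg/mL, and the variant region was sequenced from the DNA of both. The labels describe this library by its CRIPT variants alone, and the readout is growth of yeast that carry fusion proteins, not binding of full-length CRIPT in neurons.

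PDZ domains are small interaction modules that hold the C-terminal tail of a partner protein in a groove beside a β strand, with the last carboxylate in a conserved loop. The final residues of the tail set the class of the interaction, and residues further upstream can add contacts that vary between ligands. Position 4 of the peptide is ligand position −4 when the last valine is counted as 0, upstream of the residues T and V that define this class of motif. Lysine and arginine carry a positive side chain and histidine may do so, whereas D and E carry a negative one, and the side chain of E is longer than that of D by a methylene group.

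The following peptides, printed from position 1 to position 8, carry the main comparisons. The first is the wild-type ligand, followed by the substitution of its position 4 by D and by E, the highest-scoring acidic sequence among those with a small error, a pair that shares residues 1 to 3 and differs at position 4, and a sequence with an acidic residue at both ends of the varied stretch.
wild type: KNYKQTSV
K4D: KNYDQTSV
K4E: KNYEQTSV
R, K and W before E: RKWEQTSV
R, V and W before E: RVWEQTSV
R, V and W before D: RVWDQTSV
E, N and Y before D: ENYDQTSV

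Each sequence had 1 fitness score, with lower values for slower growth in the drug, and 1 error of that score, both computed by the authors after merging replicates, so a value per sample cannot be shown and the depth behind a value is unknown. In the N-terminal library the wild-type sequence scored −0.0412 ± 0.0552. The 14920 sequences with a stop codon had a median of −0.807 and quartiles of −0.883 and −0.720. The distance between these levels was 0.766, and the point midway between them was −0.424. The median error over the whole table was 0.0670. It was 0.0973 for D sequences and 0.0696 for E sequences, so a single D score was known less precisely than a single E score. Errors given with a mean are the authors' errors propagated over its members, and every p-value is from a z test on scores and their errors with Benjamini-Hochberg adjustment over the whole table, at a threshold of 0.05.

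An acidic residue at position 4 took most sequences well below wild type but kept many of them above the stop codon level. The mean score of the 5589 acidic sequences was −0.594 ± 0.00166, with an SD over members of 0.143, a median of −0.590 and a range from −1.08 to 0.0369. This mean lay 27.9% of the way from the stop level to wild type. By the z test 5404 acidic sequences (96.7%) scored below wild type, beside 89.8% of all sequences in the library, and 0 scored above it, also at an unadjusted p under 0.05; no other sequence of the library did so after adjustment (0% of all). The share below wild type was 95.8% with a hydrophobic residue at position 4, 94.4% with a polar one and 97.4% with G or P. With K or R it was 51.9%, so the high share was not particular to the acids. Above the stop level there were 3347 acidic sequences (59.9%), beside 78% of the library. This test took the stop median without an error. The stop sequences had an SD of 0.130 and a 95th percentile of −0.566, which lay above the acidic mean. With the spread of the stop sequences as the error, 1990 acidic sequences were above the stop level. The median error was 0.0783 for the acidic sequences and 0.0612 for the library, and among sequences with an error below the table's median the shares above the stop level were 95.2% (2115 of 2222) and 97.0% (41904 of 43213).

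Where a sequence with a stop codon at position 4 and the same residues at positions 1 to 3 was listed, it gave a matched lower reference. The acidic sequence exceeded this reference by 0.216 ± 0.00366 on average over 3205 combinations of residues, and it was the higher of the pair in 87.3%. The excess was 0.170 ± 0.00684 for D over 1052 combinations and 0.239 ± 0.00430 for E over 2153. Both acids thus kept a score above that of the truncated ligand, with the larger excess for E.

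Ordered by mean score, the 20 residues at position 4 placed D at rank 2 and E at rank 5 from the bottom. Tryptophan was lowest at −0.674 ± 0.00206 (4280 sequences), then D at −0.643 ± 0.00366, glycine at −0.625 ± 0.00101, phenylalanine at −0.581 ± 0.00238 and E at −0.573 ± 0.00178. The SD over members was between 0.107 and 0.140 for these 5 residues, several times the step from one to the next, so neighbours in this order overlapped widely. At the other end stood lysine, the wild-type residue, at −0.191 ± 0.00123 and arginine at −0.217 ± 0.000698, followed by glutamine at −0.381 ± 0.00165. An acidic residue was thus not the lowest choice at this position, since the bulky aromatic W had a lower mean than either acid.

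Matched on residues 1 to 3, E minus K was −0.385 ± 0.00260 over 2401 pairs, from a mean of −0.180 with K to −0.566 with E. E was the lower of the pair in 2392 of them, and 1965 passed the z test, 81.8%, beside 30% of all 430482 pairs of sequences that differ only at position 4. D minus K was −0.460 ± 0.00464 over 1116 pairs. The loss from K to E held over every number of basic residues before it, at −0.396 ± 0.00349 with 0 basic residues (1472 pairs), −0.372 ± 0.00424 with 1 (784 pairs), −0.342 ± 0.00870 with 2 (136 pairs) and −0.306 ± 0.0366 with 3 (9 pairs).

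The amides asparagine (N) and glutamine (Q) are close to D and E in size but carry no charge. E minus Q was −0.191 ± 0.00290 over 1992 matched pairs, and D minus N was −0.169 ± 0.00620 over 814. None of these pairs was called with the acid higher, whereas 821 (41.2%) and 154 (18.9%) were called with the acid lower, beside 30% of all position 4 pairs called in either direction. The shorter member was also lower among the amides, with a mean of N minus Q of −0.0959 over 1374 pairs. With an acidic residue at position 3 the gap between E and Q was −0.0958 ± 0.0203 (74 pairs), and with an aromatic residue there it was −0.228 ± 0.00802 (235 pairs).

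D scored lower than E when residues 1 to 3 were the same. Over 1166 combinations listed with both acids, D minus E was −0.0816 ± 0.00495, from means of −0.634 with D and −0.553 with E, and D was the lower in 861 (73.8%). The test of each pair called 67 with D lower (5.75%) and 6 with D higher (0.515%), a small share beside the 30% of all position 4 pairs. In the 211 pairs where both errors were below the table's median, the difference was −0.0645 ± 0.00460, and D was lower in 174 of them (82.5%).

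The size of the difference followed the residue at position 3. With an aromatic residue there D minus E was −0.138 ± 0.0126 over 176 pairs, with D lower in 85.8%, and with a basic residue it was −0.109 ± 0.00908 over 237 pairs, with D lower in 87.3%. It was −0.0678 ± 0.0113 with an aliphatic residue (266 pairs) and −0.0651 ± 0.00795 with a polar or small one (431 pairs). With a second acidic residue at position 3 it was 0.0182 ± 0.0313 over 56 pairs, which does not differ from 0 beyond its error; the mean scores were then −0.705 with D and −0.724 with E, both near the stop level. Among single residues at position 3, W gave the largest difference, −0.212 ± 0.0252 over 41 pairs, followed by H at −0.138 ± 0.0229 over 43.

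Positions 1 and 2 moved the difference between the acids less. It ranged over the 5 residue classes from −0.100 ± 0.0123 (basic, 157 pairs) to −0.0454 ± 0.0151 (aromatic, 154 pairs) at position 1, and from −0.0863 ± 0.0299 (acidic, 44 pairs) to −0.0660 ± 0.0161 (aromatic, 127 pairs) at position 2. With 0, 1 and 2 basic residues before the acid it was −0.0702 ± 0.00697, −0.0960 ± 0.00752 and −0.112 ± 0.0159. The medians were −0.0815, −0.0945 and −0.0834, so a wider gap with 2 basic residues than with 1 was not seen in them. With 3 basic residues only 5 pairs were listed, and their mean, 0.00638 ± 0.0780, had an error too large to place it.

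The pairs with the largest z in each direction show the range. RAWEQTSV scored −0.283 ± 0.0338 and RAWDQTSV −0.643 ± 0.0750. IAREQTSV scored −0.279 ± 0.0353 and IARDQTSV −0.548 ± 0.0536. VGREQTSV scored −0.398 ± 0.0165 and VGRDQTSV −0.533 ± 0.0280. Their adjusted p-values, from the z test on the authors' errors, were 0.000104, 0.000212 and 0.000241, and each pair has W or R at position 3. These pairs were picked by their own z. Of all 67 pairs called with D lower, 27 had a basic residue at position 3 and 19 an aromatic one. Another 14 had a polar or small residue there and 7 an aliphatic one.

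In the opposite direction WRLDQTSV scored −0.362 ± 0.0941 and WRLEQTSV −0.698 ± 0.0443. YTSDQTSV scored −0.364 ± 0.0753 and YTSEQTSV −0.623 ± 0.0470. HPGDQTSV scored −0.435 ± 0.0497 and HPGEQTSV −0.697 ± 0.0783. The adjusted p-values were 0.00604, 0.0146 and 0.0190, and none of these pairs has a basic or aromatic residue at position 3. However, the 6 pairs called with D higher include LKYDQTSV and LKYEQTSV, which have Y at position 3. Their D minus E was 0.433 ± 0.163, with an adjusted p of 0.0291 by the z test.

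Residues at positions 1 to 3 shifted the acidic sequences along the scale, and basic residues did so upward at every position on average over the listed sequences. An additive fit with 1 term per residue and position accounted for 43.3% of the variance over the 5589 members; the effects below are the mean terms of each class, relative to the average residue at that position. Basic residues (K, R, H) had effects of 0.0633 ± 0.00451 at position 1, 0.0560 ± 0.00426 at position 2 and 0.102 ± 0.00359 at position 3. Aromatic residues (F, W, Y) were unfavourable at position 1, −0.0621 ± 0.00449, and at position 2, −0.0625 ± 0.00492, but favourable at position 3, 0.0681 ± 0.00374, where the wild-type ligand has Y. All remaining residues as one class had effects of −0.000255 ± 0.00124, 0.00141 ± 0.00124 and −0.0364 ± 0.00108.

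Within those remaining residues the classes differed. A second acidic residue had effects of −0.0438 ± 0.00650 at position 1, −0.0289 ± 0.00659 at position 2 and −0.121 ± 0.00721 at position 3, next to the acid already at position 4. Aliphatic residues (A, I, L, M, V) were within 0.005 of 0 at positions 1 and 2 and at −0.0381 ± 0.00350 at position 3. Polar or small residues (C, G, N, P, Q, S, T) had 0.0127 ± 0.00250, 0.0142 ± 0.00239 and −0.0109 ± 0.00242. In the sequences with a stop codon, which lack the tail, class effects fitted in the same way lay between −0.0175 and 0.0244.

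Among single residues, lysine was the most favourable at position 1 (term 0.105 ± 0.00660) and at position 2 (0.107 ± 0.00816), and arginine came next at 0.0678 ± 0.00558 and 0.0581 ± 0.00492. Cysteine followed at position 1 (0.0281 ± 0.00787) and threonine at position 2 (0.0299 ± 0.00644). At position 3 arginine led with 0.146 ± 0.00445, followed by W at 0.0940 ± 0.00631 and H at 0.0862 ± 0.00698, with K at 0.0729 ± 0.00720 and the wild-type Y at 0.0697 ± 0.00654. Histidine counted with K and R at position 3, but its terms at positions 1 and 2 were 0.0170 ± 0.0115 and 0.00257 ± 0.00951, within 2 errors of 0.

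The least favourable residues were W (−0.0911 ± 0.00916), Y (−0.0485 ± 0.00758) and F (−0.0465 ± 0.00784) at position 1 and W (−0.0720 ± 0.00999), F (−0.0586 ± 0.00849) and Y (−0.0570 ± 0.00904) at position 2. At position 3 they were E (−0.125 ± 0.0105), D (−0.118 ± 0.0108) and methionine (−0.0604 ± 0.0126). Tryptophan was thus the lowest of 20 residues at positions 1 and 2 and the second highest at position 3.

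Fitted apart, the D and the E sequences shared most of these effects. Over the 60 residue terms the fits correlated with r = 0.871 and rho = 0.893, given as a description, since the terms come from the same table. Basic residues had 0.0490 ± 0.0101, 0.0612 ± 0.01002 and 0.0861 ± 0.00814 before D and 0.0688 ± 0.00494, 0.0548 ± 0.00450 and 0.110 ± 0.00385 before E. The acids differed most at position 3, where an aromatic residue had 0.0260 ± 0.00849 before D and 0.0854 ± 0.00400 before E. W alone had 0.0195 ± 0.0172 before D and 0.118 ± 0.00622 before E at this position. A second acidic residue there had −0.0596 ± 0.0180 before D and −0.139 ± 0.00779 before E.

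Basic residues also had positive effects where position 4 was not acidic. The same fit over the sequences with one of the other 18 residues there gave basic effects that differed from those of the acidic set by 0.000954 ± 0.00462 at position 1, −0.00233 ± 0.00435 at position 2 and 0.00683 ± 0.00369 at position 3. These differences are within 2 errors of 0. At position 3 the difference was beyond 2 errors under other settings, at 0.0127 ± 0.00203 when weighted by the errors, 0.0143 ± 0.00433 with H counted as other and 0.00803 ± 0.00262 with the lower errors. At position 2 the weighted difference was 0.00611 ± 0.00222, of the opposite sign. Against the sequences with K or R at position 4, whose basic effects were 0.0471, 0.0462 and 0.0737, the acidic set had larger ones by 0.0161 ± 0.00484, 0.00978 ± 0.00454 and 0.0279 ± 0.00389. With a hydrophobic residue at position 4 they were 0.0705, 0.0647 and 0.107, each above the acidic set but within 2 errors of it. They were 0.0653, 0.0613 and 0.0946 with a polar residue and 0.0491, 0.0454 and 0.0784 with G or P. A larger basic effect than with K or R was thus not particular to the acids. A D or E at position 3 cost less before an acid than before K or R, −0.121 against −0.234, a difference of 0.112 ± 0.00776. This was not particular to the acids either. The effect was −0.171 with a hydrophobic residue at position 4, −0.167 with a polar one and −0.0513 with G or P. The level from which these effects were taken differed as well, since the mean score was −0.594 for the acidic set and −0.208 for the 10311 sequences with K or R.

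The number of basic residues at positions 1 to 3 ordered the acidic sequences. The mean score was −0.635 ± 0.00226 with 0 basic residues (3420 sequences), −0.541 ± 0.00261 with 1 (1823), −0.465 ± 0.00569 with 2 (329) and −0.377 ± 0.0250 with 3 (17). These means lay 22.5%, 34.7%, 44.7% and 56.2% of the way from the stop level to wild type. The SD over members was between 0.115 and 0.133 in each of these classes, so their single sequences overlapped.

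The order held for each acid, and the means were lower for D. With 3 basic residues they rest on 6 D and 11 E sequences. The 5 matched pairs gave a D minus E of 0.00638 ± 0.0780 there, so the order of the acids is not settled at that number. D sequences had means of −0.680 ± 0.00499, −0.6004 ± 0.00582, −0.523 ± 0.0121 and −0.433 ± 0.0508 with 0 to 3 basic residues, and E sequences had −0.616 ± 0.00243, −0.516 ± 0.00278, −0.437 ± 0.00611 and −0.346 ± 0.0270. With K or R at position 4 the corresponding means were −0.238, −0.165, −0.122 and −0.0725. Even 3 basic residues before an acid therefore left a lower mean than 0 basic residues before K or R. With a hydrophobic residue at position 4 the means were −0.579, −0.476, −0.392 and −0.322. Neither the rise nor the remaining gap to K or R was thus particular to the acids. Counted as net charge of positions 1 to 3 (K and R minus D and E), the acidic set ran from −0.817 ± 0.140 at −3 (4 sequences) through −0.612 ± 0.00218 at 0 (3241) to −0.371 ± 0.0195 at 3 (9).

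Among the 27 combinations of basic, aromatic and other residues at positions 1 to 3, basic-basic-aromatic had the highest mean, −0.309 ± 0.0210 (17 sequences), 65.1% of the way to wild type. It was followed by basic-basic-basic at −0.377 ± 0.0250 (17), basic-other-aromatic at −0.416 ± 0.0102 (82) and other-basic-basic at −0.423 ± 0.00896 (101). The combination with neither, other-other-other, had −0.630 ± 0.00292 (1979). A basic and an aromatic residue together were not high at every placement, since basic-aromatic-other had −0.615 ± 0.0186 (59), below basic-other-other at −0.572 ± 0.00585 (362). The lowest 2 means were −0.737 ± 0.0182 for aromatic-aromatic-other (77) and −0.724 ± 0.0339 for aromatic-aromatic-aromatic (21). An aromatic residue at position 3 alone, other-other-aromatic, had −0.548 ± 0.00552 (439), above other-other-other.

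The gain from a basic residue at position 1 or 2 depended on what stood at position 3. With an aromatic residue there, E sequences rose from −0.534 ± 0.00511 (425 sequences) with no basic residue at positions 1 and 2 to −0.395 ± 0.00704 with 1 (140) and −0.268 ± 0.0269 with 2 (12). With a basic residue there, the E means were −0.475 ± 0.00420, −0.416 ± 0.00627 and −0.346 ± 0.0270. With an aliphatic residue there, they were −0.638 ± 0.00450, −0.570 ± 0.00713 and −0.529 ± 0.0213.

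Over both acids the gain from the first such basic residue was 0.134 ± 0.00843 with an aromatic residue at position 3, and between 0.0570 ± 0.00826 (aliphatic) and 0.0619 ± 0.00744 (basic) with any other class there. The additive fit above cannot hold this difference, because it gives each residue a single term. The same contrast was present with the other 18 residues at position 4, at 0.115 ± 0.00217 with an aromatic residue at position 3 and 0.0802 ± 0.00163 with an aliphatic one. With K or R at position 4 the gains were 0.0722 ± 0.00393 and 0.0642 ± 0.00276. With an acidic residue at position 3 the gain before K or R was 0.0702 ± 0.00664, so the aromatic class did not stand apart there.

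Few acidic sequences passed the point midway between the stop level and wild type. The z test placed 59 of them above it (1.06%), beside 14.8% of the library, and 1942 below it (34.7%), beside 24.3%. Of the 59, 58 carried E and 1 carried D. A basic residue stood at positions 1 to 3 in 59 of the 59, against 38.8% of all acidic sequences. A basic or aromatic residue stood at position 3 in 57 of them (96.6%), against 32.2%, and an aromatic residue at position 1 or 2 in 0, against 25.2%. These shares describe sequences picked by their own scores. Because a call also needs a small error, they favour E, of which 47.5% had an error below the table's median, over D, of which 21.6% had.

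The single sequences with the highest scores and small errors were all E sequences with a basic residue. RKWEQTSV scored −0.137 ± 0.0264, 87.4% of the way to wild type, and was not separated from wild type by the test. KRWEQTSV, which swaps the basic pair, scored −0.166 ± 0.0600 and was not separated from it either. RVWEQTSV scored −0.172 ± 0.0288 and was below wild type, and so was RRWEQTSV at −0.201 ± 0.0241. In this order their adjusted p-values, from the z test on the authors' errors, were 0.122, 0.133, 0.0390 and 0.00938.

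For RVWEQTSV, RRWEQTSV and RKYEQTSV, another leading E sequence, the sequence with D at position 4 scored lower. These E sequences were picked by their own high scores, which by itself favours a lower partner. RVWDQTSV scored −0.509, against −0.172 for RVWEQTSV, and RRWDQTSV scored −0.339, against −0.201 for RRWEQTSV. RKYDQTSV scored −0.481, against −0.226 for RKYEQTSV. In this order D minus E was −0.336 ± 0.114, −0.138 ± 0.0478 and −0.255 ± 0.101.

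The other leading sequences were KVWEQTSV at −0.202 ± 0.0388, KQREQTSV at −0.205 ± 0.0486, KTHEQTSV at −0.206 ± 0.0612, KKREQTSV at −0.209 ± 0.0646, RKYEQTSV at −0.226 ± 0.0619 and KKHEQTSV at −0.227 ± 0.0569. Each begins with K or R and has an aromatic or basic residue at position 3.

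Several of the highest scores had errors too large to rank them. LKYDQTSV had the highest score of all acidic sequences, 0.0369 ± 0.155, and was the 1 D sequence above the midpoint, with an adjusted p of 0.0118, whereas LKYEQTSV scored −0.396. NAHEQTSV scored −0.115 ± 0.177, PKFDQTSV −0.153 ± 0.209, KVYEQTSV −0.153 ± 0.0758, RYMEQTSV −0.164 ± 0.127, KQWDQTSV −0.171 ± 0.210 and KFFEQTSV −0.192 ± 0.202. Of these, only KVYEQTSV and LKYDQTSV passed the midpoint test. The next D sequences were THRDQTSV at −0.244 ± 0.156 and CIPDQTSV at −0.255 ± 0.228. The lowest scores, QEVEQTSV at −1.08 ± 0.510, QLDDQTSV at −1.06 ± 0.303 and QFLDQTSV at −1.06 ± 0.304, had the same limit and were not below the stop level by the test.

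Around the wild-type residues at positions 1 to 3, KNYDQTSV scored −0.411 ± 0.0619 in this library, below wild type with an adjusted p of 1.38e-05 and above the stop level. KNYEQTSV was not listed in this table and was read from the others. The 36 acidic sequences with 1 further substitution at positions 1 to 3 ran from −0.794 to −0.153 with a median of −0.453. The highest, KVYEQTSV, KKYEQTSV at −0.232 ± 0.0534 and KTYEQTSV at −0.245 ± 0.0782, all changed N at position 2. The lowest, ENYDQTSV at −0.794 ± 0.0787, FNYDQTSV at −0.746 ± 0.154 and LNYDQTSV at −0.717 ± 0.129, all lost the lysine at position 1.

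The same substitutions in the other tables, made from other libraries, gave the same order of the acids. In the pairwise library, where wild type scored 0.0314 ± 0.0140 and the stop level was −0.893, K4D scored −0.511 ± 0.0258 and K4E −0.377 ± 0.0203. In the PDZ3-CRIPT table, where wild type scored −0.000512 ± 0.00383, which lists the CRIPT singles once with PDZ3 residues 1 to 50 and again with residues 51 to 100, K4D scored −0.495 ± 0.00467 and −0.488 ± 0.00515. K4E scored −0.349 ± 0.00412 and −0.341 ± 0.00462 there. The uncharged K4N and K4Q scored −0.328 ± 0.0266 and −0.152 ± 0.0192 in the pairwise library, so each acid stood below its amide there too.

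The N-terminal and pairwise tables shared 37 acidic sequences. By the z test with Benjamini-Hochberg adjustment 0 of the 37 differed between the libraries (3 at an unadjusted p under 0.05), against 2 of all 968 shared sequences (0.207%), and the N-terminal score was higher by a median of 0.0603. The scores correlated over the 37 with r = 0.713 and rho = 0.764, and over the 968 with r = 0.874, given as a description. KVYEQTSV, which stood high in the N-terminal library at −0.153 ± 0.0758, scored −0.368 ± 0.0482 in the pairwise one, a difference that did not pass, with an adjusted p of 0.477. ENYDQTSV, low in the N-terminal library at −0.794 ± 0.0787, scored −0.552 ± 0.143 in the pairwise one. That difference did not pass either, with an adjusted p of 0.866. In the pairwise library ENYDQTSV was not separated from K4D, at a difference of −0.0408 ± 0.145. FNYDQTSV and LNYDQTSV scored −0.682 ± 0.0768 and −0.589 ± 0.0750 there.

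The pairwise library also gave the test of each second substitution against the acidic single. Of 55 doubles with K4D, 1 scored higher than K4D and 10 lower, and of 57 with K4E, 0 scored higher by adjusted p, 1 at an unadjusted p under 0.05, and 26 lower. Among all 16882 such comparisons of that library, 2.14% were called higher and 50.5% lower. The 1 double called higher was KKYDQTSV, which adds a lysine at position 2: it scored −0.308 ± 0.0785, above K4D by 0.203 ± 0.0826, with an adjusted p of 0.0281. The same lysine added to K4E gave 0.106, which did not pass, with an adjusted p of 0.0799. Without the acid, the substitution of N by K at position 2 scored 0.0689 ± 0.0190. Basic substitutions at position 1, which already has K, changed K4D by −0.280 ± 0.127 and K4E by −0.0901 ± 0.0438 on average. At position 2 the means were 0.0950 ± 0.0562 and 0.0552 ± 0.0378, and at position 3 −0.0331 ± 0.0694 and −0.0775 ± 0.0624. Only position 2 thus had positive means beside the wild-type residues, and these were within 2 errors of 0.

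The doubles called lower than K4E lay at position 1 in 13, at position 3 in 12 and at position 2 in 1, of 19 listed at each. Those called lower than K4D lay at position 1 in 6 of 18, at position 2 in 3 of 19 and at position 3 in 1 of 18. Over the 55 second substitutions listed with both acids, D minus E was −0.142 ± 0.0202, with D lower in 49.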

How the data were processed

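The deposited tables give, per the file headers, a fitness score and an error of that score (sigma) for each amino acid sequence. The authors merged replicates and synonymous codons. FastQC and cutadapt are named per the submitters' processing notes. The scoring tool, the log base of the score, what the error is (a standard error or another) and any filter on counts are not given in the sources used here, and the depth is unknown, so precision is the authors' error alone. A planned count model could not be used for this reason. It was replaced by the z tests written in the same plan: score minus wild type, minus the stop median, or minus the paired sequence, over the combined error, with two-sided normal p-values and Benjamini-Hochberg adjustment over the whole table (threshold 0.05). All comparisons with wild type share its 1 error. Additive fits were unweighted least squares with terms summing to 0 per position. The tests and fits were checked on simulated data. Python 3.11.15, numpy 2.4.6, pandas 2.3.3 and scipy 1.17.1 were used.

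Sequences named are K4D and K4E, the 10 highest, the 5 highest with each acid, the 3 lowest, the 3 highest and 3 lowest with 1 further substitution, the 3 pairs of largest z in each direction, and the 3 highest and lowest residue terms per position. Members, classes and lists were chosen with earlier results of these data known. The midpoint test, the comparison of pairwise doubles with singles, the gain by class at position 3, the terms of further single residues, and the highest scores among the 50% of sequences with the lower errors were added after the values had been seen. The 2 wild-type control samples of the series were not used here, because no table value is tied to them. The scores do not say whether members came from separate clones, and 138 acidic sequences share both score and error with another acidic sequence.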

Additional observations from a re-analysis of the deposited data

How the results depend on the processing

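No paired analysis was possible because each sequence has 1 score with the replicates already merged. For the same reason no replicate could be left out, and the planned edgeR alternative with a replicate block was not run. Of the alternative values, 28 stayed within the error of the value reported, or within 1.5 times for a count, and 44 moved beyond it. None changed the direction of a difference that was larger than 2 errors. The 50% of table entries with the lower errors hold 2222 of the acidic sequences: 2218 of them were below wild type and 2115 (95.2%) above the stop level, and 46 of 211 D-E pairs were called (21.8%). The cause of these shifts was not tested. With the spread of the stop sequences as the error, 1990 were above the stop level. With an adjusted p under 0.01, 29 passed the midpoint and 17 D-E pairs were called. Apart from the stop level with the lower errors, library shares under these settings are not given here.

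D minus E was −0.0745 with inverse-variance weights, −0.0706 unmatched, −0.0645 with the lower errors and −0.0916 where D or E was above the stop level. The basic effect at positions 1, 2 and 3 was 0.0864, 0.0827 and 0.109 with H counted as other, and 0.0490, 0.0612 and 0.0861 for D alone. For E alone it was 0.0688 at position 1 and 0.110 at position 3. It was 0.0567 and 0.0968 at positions 1 and 3 when weighted, 0.0581 and 0.0939 with the lower errors, and 0.0683 and 0.0510 at positions 1 and 2 as plain class means. The aromatic effect was −0.0425 for D and −0.0711 for E at position 1, and −0.0557 for D and −0.0526 with the lower errors at position 2. At position 3 it was 0.0260 for D, 0.0854 for E, 0.0790 weighted, 0.0745 with the lower errors and 0.0554 as a plain class mean.

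The basic effect of the acidic set minus that of the other 18 residues, divided by the SD of each set, became 0.110, 0.0803 and 0.205 SD at positions 1, 2 and 3. The acidic set has the smaller SD. At position 2 the difference was 0.00611 ± 0.00222 weighted and 0.00412 ± 0.00290 with the lower errors, and at position 3 it was 0.0143 ± 0.00433 with H as other and 0.0127 ± 0.00203 weighted. The difference between acidic sequences with 2 or 3 basic residues and those with 0, 0.174, was 0.195 with H as other, 0.185 as medians and 0.155 with the lower errors. The acidic mean minus that of the other 18 residues, −0.114, was −0.101 with the lower errors. The midpoint alternatives were chosen after seeing the data. The depth is unknown, and the errors of single D sequences (median 0.0973) were larger than those of E (0.0696).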

Other observations

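Acidic sequences that were above the stop level and not separated from wild type numbered 57 of 5589 (1.02%), beside 6583 of the 76895 in the library (8.56%). D was carried by 15 of them (0.900% of D sequences) and E by 42 (1.07% of E sequences). In this group 15 (26.3%) had a basic residue at position 1, 16 (28.1%) at position 2 and 14 (24.6%) at position 3, while 19 (33.3%) had an aromatic residue at position 3. Among all acidic sequences these shares were 13.2%, 15.1%, 16.9% and 15.3%. A large error alone can place a sequence in this group.

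Among pairs of residues at 2 of positions 1 to 3 with at least 10 listed acidic sequences, K at position 2 with Y at position 3 had the highest mean, −0.328 ± 0.0245 (10 sequences), followed by K with R at these positions at −0.351 ± 0.0162 (15) and by K at position 1 with R at position 3 at −0.353 ± 0.0133 (22). The lowest were Q at position 1 with D at position 3, −0.795 ± 0.0582 (10), L at position 1 with E at position 3, −0.790 ± 0.0442 (12), and L at position 2 with D at position 3, −0.783 ± 0.0488 (16), all close to the stop level of −0.807.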
